A study of Mus musculus with 108 samples.

Results

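Purkinje cells are the large inhibitory neurons of the cerebellum, and the 9 genes described here are ones by which they are commonly recognised in mouse. They are Pcp2, Pcp4, Car8, Itpr1, Rora, Foxp2, Ppp1r17, Slc1a6 and Skor2, found by gene symbol among the 53465 genes of the count table. Bulk RNA was sequenced from 3 regions of the same mice, the cerebellum (CB), the cortex (CX) and the hippocampus (HIP), at embryonic day E17.5, at postnatal day 7 (P7) and in adults, which the labels call P35 and the study's methods place at 4 to 6 weeks. The WT mice carried no engineered allele and the Cul3+/- mutant mice (HET in the labels) carried 1 copy of Cul3 with a 1-bp insertion in exon 6, in all tissues, in a line derived from 1 founder. Both genotypes were untreated and on a C57BL/6N background according to the methods, and the labels spell the strain C56Bl/6N. Of 36 mice, 34 were used with 3 libraries each, 6 WT and 6 mutant mice at E17.5 and at P7 and 5 and 5 at P35. The other 2 adult mice had opposite genotypes in the labels and in the study's sample table.

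Purkinje cells are the only output of the cerebellar cortex, and they inhibit the deep cerebellar nuclei through GABA. Each one receives glutamate from very many parallel fibres, the axons of granule cells, and from a climbing fibre. Part of the glutamate signal runs through phospholipase C, which makes IP3, which opens the calcium channel encoded by Itpr1 on the endoplasmic reticulum. Car8, a carbonic anhydrase relative with no enzyme activity, binds that channel and lowers its affinity for IP3. Slc1a6 (EAAT4) is a glutamate transporter of the Purkinje cell membrane, and Ppp1r17 (G-substrate) is a phosphatase inhibitor that cGMP-dependent protein kinase switches on. Pcp4 binds calmodulin and Pcp2 (L7) regulates G proteins. Rora, Foxp2 and Skor2 encode transcription regulators, of which Rora is mutated in the staggerer mouse, whose Purkinje cells fail to mature.

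RefSeq promoters, each the 250 bases before and the 50 bases after a start site in GRCm38.p6, were at hand for 4 of the 9 genes, Pcp2, Pcp4, Rora and Slc1a6. They are shown because RORA, the product of a member of the group, binds DNA at sites that hold AGGTCA, and because these genes share CB as the place of their highest level. Capitals mark AGGTCA as read 5′ to 3′ on the strand of the gene, or TGACCT, its reverse complement. Of the 4 Pcp2 entries, the one nearest the start of the gene in the annotation is shown.
Pcp2, minus strand, chr8:3625498-3625797: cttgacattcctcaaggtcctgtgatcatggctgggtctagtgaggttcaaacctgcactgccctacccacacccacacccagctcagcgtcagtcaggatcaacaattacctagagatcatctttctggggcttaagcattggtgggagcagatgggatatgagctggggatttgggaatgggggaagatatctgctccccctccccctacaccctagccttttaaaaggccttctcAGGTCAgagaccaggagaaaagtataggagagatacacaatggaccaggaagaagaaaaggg
Pcp4, plus strand, chr16:96467356-96467655: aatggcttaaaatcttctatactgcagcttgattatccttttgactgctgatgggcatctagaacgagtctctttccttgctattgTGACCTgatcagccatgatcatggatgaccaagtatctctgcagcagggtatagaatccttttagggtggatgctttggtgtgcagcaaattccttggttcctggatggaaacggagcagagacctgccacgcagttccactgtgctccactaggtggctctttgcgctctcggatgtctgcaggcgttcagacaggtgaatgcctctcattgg
Rora, plus strand, chr9:68653536-68653835: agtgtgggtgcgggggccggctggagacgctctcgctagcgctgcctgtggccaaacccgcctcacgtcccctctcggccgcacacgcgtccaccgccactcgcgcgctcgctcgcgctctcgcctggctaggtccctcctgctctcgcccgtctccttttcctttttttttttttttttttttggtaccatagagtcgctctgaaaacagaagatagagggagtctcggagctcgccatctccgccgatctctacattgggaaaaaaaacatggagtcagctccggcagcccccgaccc
Slc1a6, plus strand, chr10:78780246-78780545: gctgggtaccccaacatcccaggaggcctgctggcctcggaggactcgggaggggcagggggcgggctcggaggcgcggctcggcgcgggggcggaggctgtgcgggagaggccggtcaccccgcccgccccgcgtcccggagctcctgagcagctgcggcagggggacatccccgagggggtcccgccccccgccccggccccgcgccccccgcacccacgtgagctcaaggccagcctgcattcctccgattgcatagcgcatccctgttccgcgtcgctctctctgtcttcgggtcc
The Pcp2 promoter held AGGTCA once, starting 12 bases before the start site, and the Pcp4 promoter held it once on the other strand, with the match as printed beginning 164 bases before the start site. Those of Rora and Slc1a6 held no such run in this window. Searched on both strands, the 6 letters were found in 5340 of all 32851 promoters of this length (16.3%).

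In the genome (GRCm38), Pcp2 is at chr8:3623371-3625545 on the minus strand and spans 2.17 kb, while Rora at chr9:68653786-69388246 spans 734 kb and Foxp2 at chr6:14901349-15441977 spans 541 kb. Foxp2, Ppp1r17 (chr6:56017497-56032689) and Itpr1 (chr6:108213096-108551109) share chromosome 6 on the plus strand. Car8 is at chr4:8143362-8239041 on the minus strand, and Slc1a6 at chr10:78780496-78814765 and Pcp4 at chr16:96467606-96525793 are on the plus strand.

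Library totals ran from 15126093 to 44411259 counts. Levels are given as CPM, counts scaled to TMM library sizes, and ± stands for the SD between mice beside a level and for the SE beside a log2 fold change. A gene was called where its adjusted p, by the Benjamini-Hochberg method over all genes of the comparison, was below 0.1 (10% FDR) in edgeR's quasi-likelihood F test. Cul3 itself lay between 159 and 220.2 CPM in all WT libraries and between 84.1 and 126 in all mutant libraries. The 12 granule cell genes of a marker list, which mark the most numerous neurons of CB, summed to 5567 to 5876 CPM in adult WT CB and to 1064 to 1313 in CX, where Slc17a7, Neurod1 and others of the list are also in use. By En2 and Emx1, chosen after their values were seen, the regions matched their labels. En2, a homeobox gene of cerebellar identity, lay between 68.3 and 155 CPM in all CB libraries and at most at 0.973 in any CX or HIP library, and Emx1, a homeobox gene of the dorsal forebrain, was at 7.02 CPM or more in all CX and HIP libraries and at most at 0.107 in any CB library. The whole forebrain identity list, which holds Emx1, still summed to 89.7 to 140 CPM in CB at E17.5. A group of 4 embryos, those with the name prefix S3, stood apart in CB at E17.5 by the levels of the 9 genes. The adult CB library of WT replicate 3 did so by the levels of some of them. Some results that turn on these libraries are given with and without them. The correlations between genes are given only with them. In bulk tissue fewer cells of a type and less RNA per cell cannot be told apart, and this holds for every level below.

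Between regions, the 9 genes divided into those read almost only in CB and those with a forebrain level of their own. In WT mice, 6 of the 9 genes were called at least 4-fold higher in CB than in CX at P7 and 6 of the 9 at P35, and 7 of the 8 tested at E17.5. Of all genes tested, 5.94%, 5.51% and 4.36% met that rule at E17.5, P7 and P35. Against HIP the counts were 7 of 8, 9 of 9 and 9 of 9, where 3.64%, 4.39% and 4.53% of all genes did so. The median log2 fold change of CB over CX at P35 was 4.87 over the 9 genes and 0.04 over all genes tested. Ppp1r17 was too low at E17.5 to pass the filter on counts. In the mutant mice the same rule gave 7 of 8, 6 of 9 and 6 of 9 genes against CX, and 7 of 8, 9 of 9 and 9 of 9 against HIP. Pcp2 and Skor2 at each age, and Ppp1r17 at P35, had few or no counts in CX and HIP and passed the filter through CB. Ppp1r17 at P7 had 28 counts over the 6 WT CX libraries. Such genes could hardly be called otherwise than higher in CB, and they are part of the counts above.

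Skor2, a corepressor of early Purkinje differentiation, and Pcp2 were the most restricted. Skor2 had no count in any WT library of CX at E17.5, P7 or P35, none in HIP at E17.5 and P35, and 1 count over the 6 HIP libraries at P7. In CB its level at E17.5 ran from 16.6 to 34.3 CPM (median 25.3, n = 6). Against 3 counts over the group, the most that a sum of 0 allows, Skor2 was at least 1538-fold higher in CB than in CX at E17.5, at least 339.8-fold at P7 and at least 313-fold at P35. Pcp2 gave 3 counts over the 6 CX libraries at E17.5 and 0 over those of HIP, against 5610 in CB. Its ratio of CB to CX at P7 was 8687 (exact 95% counting interval 2972 to 42129), from 3 counts in CX. Bounds and intervals here cover counting error only. In the adult the level of Pcp2 was 256, 286, 242, 249 and 271 CPM in the 5 WT CB libraries and at most 0.124 CPM in any WT library of CX, so no CB library came near the forebrain levels.

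Car8 and Slc1a6 were also strongly enriched in CB, above a low forebrain level. Car8 in adult CB was at 2008, 2242, 1549, 1905 and 1868 CPM in the 5 WT mice, against 16 to 22.7 CPM in CX and 5.58 to 7.36 CPM in HIP. CB exceeded CX by 6.63 ± 0.11 (log2, adjusted p = 9.4e-14) and HIP by 8.23 ± 0.12. For Slc1a6 the adult CB values were 166, 179, 159.6, 158 and 152 CPM and the CX values 4.31, 5.63, 5.81, 6.02 and 5.97 CPM. The difference from CX was 4.87 ± 0.09 (log2, adjusted p = 1.4e-13). Ppp1r17 reached the same pattern later, with log2 differences of CB over CX of 6.47 ± 0.27 at P7 and 10.89 ± 0.17 at P35.

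Itpr1, the IP3-gated calcium channel, was lower in CB than in CX at E17.5 and higher from P7. Its level at E17.5 ran from 161 to 366 CPM (median 311, n = 6) in WT CX and from 57.1 to 172 CPM (median 132, n = 6) in CB, and CB was the lower region in each of the 6 WT mice. The log2 difference of CB over CX was -1.34 ± 0.14 at E17.5 (adjusted p = 3.2e-06), 1.76 ± 0.09 at P7 (adjusted p = 4e-11) and 2.28 ± 0.07 at P35 (adjusted p = 1.8e-11). In the adult, the WT CB values were 4776, 5413, 5564, 5194 and 4313 CPM and the CX values 1073, 1220.3, 992, 979 and 901 CPM. CB was then the highest region in 5 of 5 WT mice, while CX still held 20.5% of the CB level. Against HIP at E17.5 the difference was 0.45 ± 0.14 (log2, adjusted p = 0.019), with CB above HIP in 5 of 6 mice, and without the mouse as a block it was 0.52 and not called (adjusted p = 0.13).

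Foxp2, a forkhead factor of young Purkinje cells and of deep-layer cortical neurons, moved the opposite way. CB exceeded CX at E17.5 by 3.50 ± 0.31 (log2, adjusted p = 6.7e-07) in 6 of 6 WT mice. At P7 the difference was 0.05 ± 0.09 (adjusted p = 0.61), with CB above CX in 3 of 6 mice. At P35 CB was lower than CX by 0.68 ± 0.16 (adjusted p = 0.0017) in 5 of 5 mice, with 12.2, 12.1, 12, 13.3 and 11 CPM in CB and 21.7, 21.7, 18.7, 16.6 and 17.4 CPM in CX. HIP stayed below both, at 0.776 to 2.42 CPM (median 1.52, n = 5) in the adult.

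Rora and Pcp4 were highest in CB at every age, over forebrain levels that rose as well. The log2 difference of CB over CX for Rora was 5.13 ± 0.22 at E17.5, 2.26 ± 0.07 at P7 and 1.98 ± 0.07 at P35. For Pcp4 it was 3.46 ± 0.13, 1.96 ± 0.08 and 1.52 ± 0.08. Whether these differences changed with age was not tested. Rora in CX rose from 6.51 ± 0.780 CPM (mean ± SD, n = 6) at E17.5 to 47.6 ± 6.10 (n = 6) at P7 and 151 ± 9.34 (n = 5) at P35.

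**Figure D1:**
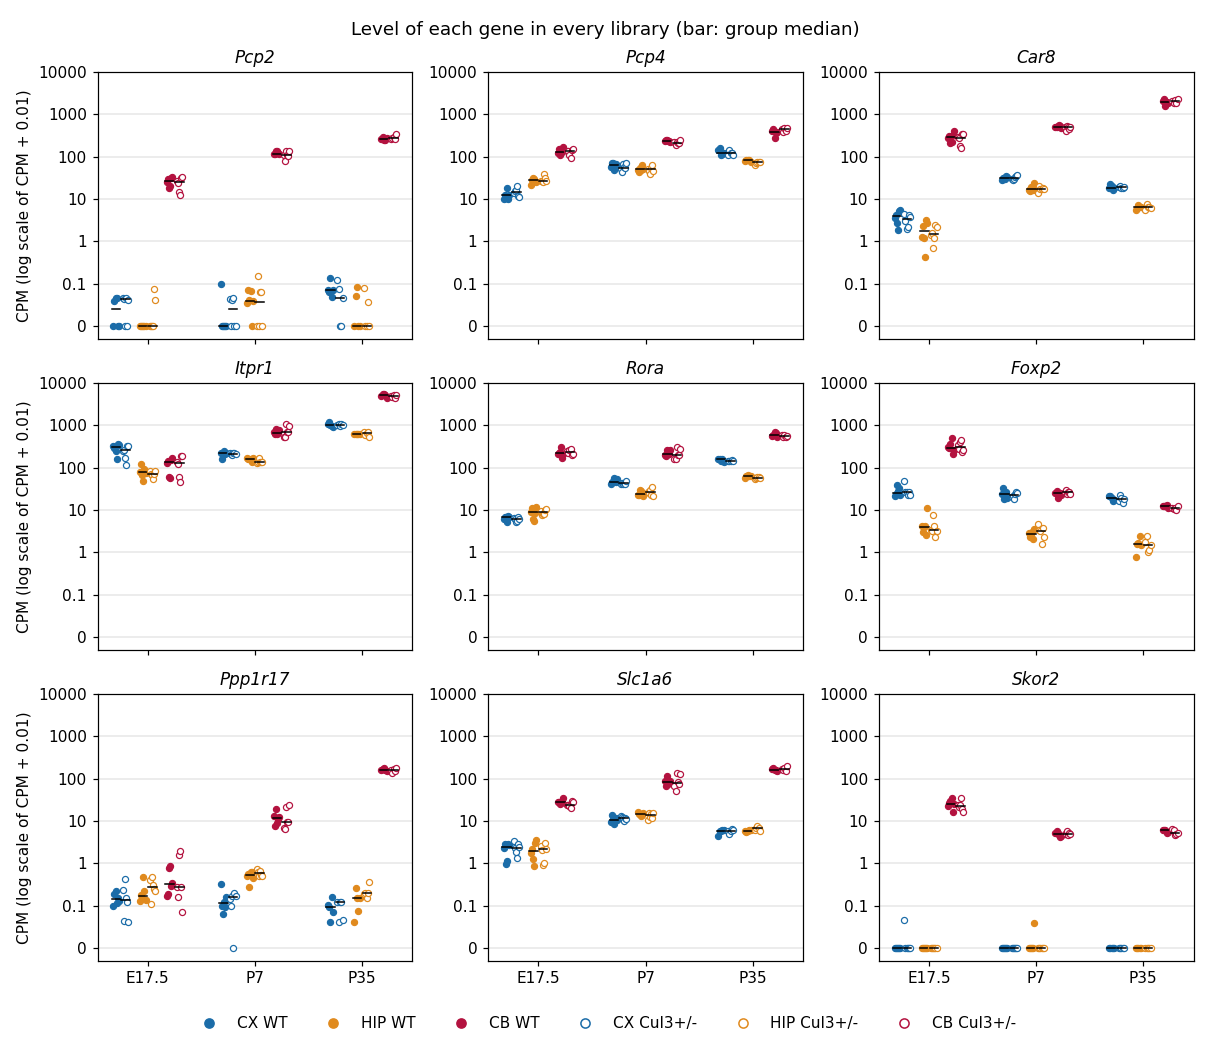
Level of each of the 9 genes in every library used, in CPM on a log scale with 0.01 added, by period and region, with WT mice as filled and Cul3+/- mice as open points and a bar at each group median. Pcp2 and Skor2 stay near 0 in CX and HIP at all ages, Itpr1 in CX lies above CB at E17.5 and below it from P7, and Foxp2 in CB falls to the level of CX at P7 and below it at P35.

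Within the forebrain, Pcp4, Car8, Itpr1, Rora and Foxp2 were called between CX and HIP at each age. In all, 5 of 8 genes were called at E17.5, 7 of 9 at P7 and 6 of 9 at P35, against 46.5%, 57% and 51.5% of all genes. The genes tested include Pcp2 and Skor2, which passed the filter through CB and had few or no counts in CX and HIP. At P35 CX exceeded HIP by 3.65 ± 0.19 on the log2 scale for Foxp2 and by 1.60 ± 0.10 for Car8. Itpr1 was higher in CX at all 3 ages, by 1.79 ± 0.14, 0.43 ± 0.08 and 0.76 ± 0.07. Pcp4 was lower in CX than in HIP at E17.5 (-1.17 ± 0.13) and higher at P35 (0.70 ± 0.08). Pcp2, called at P35, had 11 counts over the 5 CX libraries and 3 over those of HIP.

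**Figure D2:**
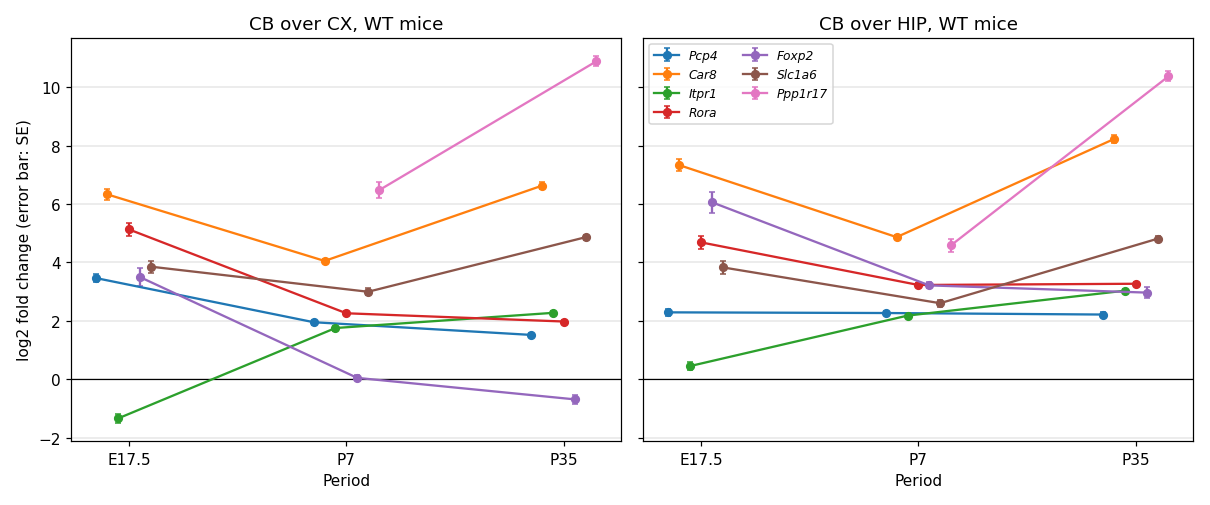
Log2 fold change of CB over CX (left) and of CB over HIP (right) in WT mice at each period for the 7 genes other than Pcp2 and Skor2, with error bars of 1 SE and a line at 0; Ppp1r17 was not tested at E17.5. Itpr1 crosses 0 upwards against CX between E17.5 and P7, from -1.34 to 1.76, and Foxp2 falls from 3.50 to below 0.

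Other genes of the same cell were read in the comparison of adult CB with CX from 4 lists, leaving out the 9 genes. Of all genes tested 38.9% were called higher and 36.5% lower in CB. Of 10 further genes from glutamate signalling to calcium release, 8 were higher and 2 lower in CB, with a median log2 fold change of 2.22. Homer3, a postsynaptic scaffold that binds the IP3 channel (5.66 ± 0.08), had the smallest p. Of 11 genes of calcium handling and firing 7 were higher and 3 lower, and of 7 genes of GABA output and other Purkinje genes 7 were higher. Of 8 tested genes of early differentiation 6 were higher in CB, and Foxp1, a forkhead factor that cortical projection neurons also use, was among the 2 that were lower (-2.17 ± 0.07). Most of the listed genes are in use in other neurons too, and the median over all genes tested was 0.04.

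Across development in WT CB, 6 of the genes rose in both intervals, Foxp2 fell in both, Skor2 fell first and Rora rose only after P7. From E17.5 to P7, 6 of the 9 genes rose and 2 fell, where 35.7% of all genes rose and 35.5% fell. From P7 to P35, 8 rose and 1 fell, where 40% of all genes rose and 39.4% fell. The median log2 fold change over the 9 genes was 0.80 in the first interval and 1.10 in the second, and that over all genes -0.01 and 0.01. With 2 of the 6 WT embryos left out, those with the name prefix S3 described below, the first interval again had 6 genes higher and 2 lower. CPM are shares of a library, so a rise of other cells lowers them. The summed level of the 12 granule cell genes ran from 1042 to 1692 CPM in WT CB at E17.5 and from 5567 to 5876 at P35, and that of 7 oligodendrocyte genes from 60.9 to 77.3 to between 2645 and 5848. Their part in these differences was not tested.

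Itpr1 and Car8, the calcium channel and its binding partner, had the highest adult levels of the 9 genes in CPM. Itpr1 in WT CB ran from 57.1 to 172 CPM (median 132, n = 6) at E17.5 and from 627 to 798 CPM (median 664, n = 6) at P7. The adult values of 4776, 5413, 5564, 5194 and 4313 CPM left no overlap between ages. The log2 fold changes were 2.55 ± 0.22 (adjusted p = 1.2e-08) and 2.89 ± 0.23 (adjusted p = 1.1e-09). Car8 rose by 0.79 ± 0.13 and 1.94 ± 0.14, from 291 ± 74.3 to 506 ± 28.7 (n = 6 each) and 1915 ± 251 CPM (n = 5).

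Ppp1r17, the phosphatase inhibitor, had the largest fold of the 9. It stood at 0.155 to 0.843 CPM (median 0.309, n = 6) in WT CB at E17.5, 91 counts over 6 libraries, and at 7.57 to 18.6 CPM (median 11.5, n = 6) at P7. In the adult it was at 156, 166, 179, 156 and 148 CPM. The log2 fold changes were 4.77 ± 0.29 (adjusted p = 1.1e-10) and 3.78 ± 0.21 (adjusted p = 7.7e-12), and the ranges of the 3 ages did not overlap.

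Pcp2, Slc1a6 and Pcp4 rose more evenly. Pcp2 went from 26.2 ± 6.04 to 123 ± 10.7 and 261 ± 17.8 CPM, log2 fold changes of 2.22 ± 0.12 and 1.10 ± 0.12. Slc1a6 went from 28.3 ± 3.81 to 85.5 ± 16.4 and 163 ± 10.4 CPM, with 1.58 ± 0.11 and 0.95 ± 0.11. Pcp4 changed least of the 3, by 0.80 ± 0.10 and 0.68 ± 0.10, and was at 134 ± 21 CPM at E17.5 already.

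The 3 transcription regulators differed from each other. Foxp2 fell from 204 to 491 CPM (median 297, n = 6) at E17.5 to 18.7 to 28.6 CPM (median 24.4, n = 6) at P7, a log2 fold change of -3.75 ± 0.17 (adjusted p = 2.8e-12), and to 12.2, 12.1, 12, 13.3 and 11 CPM in the adult (-0.97 ± 0.17). Skor2 fell from 16.6 to 34.3 CPM (median 25.3, n = 6) to 4.08 to 5.72 CPM (median 4.82, n = 6), a log2 fold change of -2.42 ± 0.14. Its call from P7 to P35 (0.29 ± 0.15, adjusted p = 0.09) was lost in the mutant mice (0.13, adjusted p = 0.43), under upper-quartile normalization, without the filter on counts and without any 1 of 11 of the 17 WT mice. Rora, which the staggerer mouse lacks, stood at 225 ± 46.3 CPM at E17.5 and 223 ± 32.5 at P7 (-0.03 ± 0.12, adjusted p = 0.85) and then rose to 603 ± 69.6 (1.45 ± 0.13, adjusted p = 8.1e-09).

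Per length the order in adult WT CB was not the order of the CPM. On the scale of mean CPM per kb of exon sequence, all annotated exons of a gene joined, the levels were 497 for Car8, 363 for Pcp4, 276 for Itpr1, 143 for Pcp2, 91.6 for Ppp1r17, 75.8 for Slc1a6, 46.2 for Rora, 1.85 for Skor2 and 0.743 for Foxp2. At E17.5 the first was Pcp4 at 131, followed by Car8 at 75.5 and Foxp2 at 19.5, while Itpr1 was at 6.40. The joined exons count every isoform, so a gene with long alternative exons such as Foxp2 (16.3 kb) is set lower on this scale than 1 of its transcripts would be.

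The same 4 lists, again without the 9 genes, changed with age in CB. Of 9 further genes of early Purkinje differentiation, 6 fell and 0 rose from E17.5 to P7, with a median log2 fold change of -0.62, and 6 fell and 0 rose from P7 to P35. Ebf2 (-3.03 ± 0.21), Ebf3 (-1.61 ± 0.15) and Ebf1 (-0.79 ± 0.09), all of the early B-cell factor family of transcription factors, had the smallest p of this list in the first interval. Lhx5, a LIM homeobox factor of young Purkinje cells, went from 42.3 ± 11.6 to 14 ± 1.66 CPM between E17.5 and P35. Of 10 further genes from glutamate signalling to calcium release, 6 rose and 2 fell in the first interval and 8 rose and 1 fell in the second. Homer3 rose by 1.81 ± 0.07 and 1.65 ± 0.07, on the log2 scale.

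Of 11 genes of calcium handling and firing, 8 rose and 0 fell up to P7, and 11 of 11 rose afterwards. Parvalbumin (Pvalb) rose by 3.43 ± 0.21 and 3.34 ± 0.21, and calbindin (Calb1), the calcium buffer most used to stain Purkinje cells, was at 131 ± 45.3, 493 ± 34.6 and 1084 ± 148 CPM. Of 7 further genes of GABA output and G-protein signalling, 4 rose up to P7 and 7 rose from P7 to P35, none being called lower in either interval. Gng13, a G-protein gamma subunit, had log2 fold changes of 4.62 ± 0.21 and 4.44 ± 0.14, and Rgs8, a regulator of G-protein signalling, of 1.67 ± 0.13 and 3.05 ± 0.14. Median log2 fold changes from P7 to P35 were -0.86, 1.57, 1.88 and 1.97 for the 4 lists in the order given, and 0.01 over all genes.

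In the forebrain the genes followed courses of their own. From E17.5 to P7 in CX, 4 of 6 genes tested rose, where 41.3% of all genes did, and in HIP 6 of 7, against 38.9%. From P7 to P35, 3 of 6 rose in CX and 3 of 7 in HIP, against 33.2% and 31.3% of all genes. In CX 2 fell, where 6430 of all 18620 genes did. In HIP 4 fell, where 5800 of all 18429 genes did, and the median log2 fold change of the 7 was -0.76. Itpr1 in CX had fallen from E17.5 to P7, by 0.49 ± 0.15 on the log2 scale. The 3 genes that rose in both forebrain regions after P7 were Pcp4, Itpr1 and Rora. Car8 and Slc1a6 peaked at P7 there. Car8 in CX was at 3.80 ± 1.39, 31.3 ± 2.41 and 19.1 ± 2.43 CPM, log2 fold changes of 3.01 ± 0.19 and -0.68 ± 0.18, and Slc1a6 fell after P7 by 0.95 ± 0.22 in CX and by 1.3 ± 0.21 in HIP, on the log2 scale. Ppp1r17 in HIP, at a level below 1 CPM, rose by 1.33 ± 0.36 to P7 and fell by 2.00 ± 0.41 afterwards. Foxp2 in CX stayed between 19.2 and 27.8 CPM on average and was not called in either interval (adjusted p = 0.14 and 0.13).

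Between Cul3+/- mutant and WT mice none of the genes tested was called at any age in CX, HIP or CB, by edgeR's quasi-likelihood test or by DESeq2. All 9 genes were tested in CB, 6 in CX at each age, and 6, 7 and 6 in HIP at E17.5, P7 and P35, the others being too low to pass the filter. In these comparisons Cul3 was the only gene that edgeR called, 0.00603%, 0.00586% and 0.00568% of the genes tested in CX, HIP and CB at E17.5, 0.00566%, 0.00563% and 0.0057% at P7 and 0.00569%, 0.00584% and 0.00584% at P35. At an unadjusted p under 0.05 lay 1 of the 9 genes in adult CB, where 14.4% of all genes were, 2 of 6 in adult HIP, against 6.25%, and none elsewhere. In adult CB DESeq2 called 218 of all genes, none of them among the 9. In CB the WT and mutant ranges overlapped for all 9 genes at each age.

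In adult CB the log2 fold changes of mutant over WT were 0.07 ± 0.07 for Pcp2, 0.19 ± 0.11 for Pcp4, 0.05 ± 0.09 for Car8 and -0.09 ± 0.07 for Itpr1. Those of Slc1a6 and Ppp1r17 were 0.04 ± 0.07 and -0.06 ± 0.07. The 3 transcription regulators were below 0, Rora at -0.17 ± 0.08, Foxp2 at -0.19 ± 0.07 and Skor2 at -0.13 ± 0.11. Foxp2 was the gene with an unadjusted p under 0.05 (adjusted p = 0.33). Its level was 12.2, 12.1, 12, 13.3 and 11 CPM in WT and 10.9, 10.6, 10.8, 10.1 and 12.2 CPM in mutant mice, and the ranges overlapped. Pcp4 was at 394, 436, 279.9, 366 and 389 CPM in WT and 445, 387, 463, 396 and 484 CPM in mutant mice, its lowest value being that of WT replicate 3, without which the difference was 0.10.

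At P7 the genotype differences in CB ran from -0.11 ± 0.10 for Pcp2 and -0.10 ± 0.06 for Pcp4 to 0.15 ± 0.09 for Foxp2, with -0.06 ± 0.06 for Car8, 0.13 ± 0.15 for Itpr1, -0.03 ± 0.16 for Rora, 0.14 ± 0.32 for Ppp1r17, 0.09 ± 0.21 for Slc1a6 and 0.07 ± 0.09 for Skor2. At E17.5 the SE were wider for 7 of the 9 genes. These fits had no term for the name prefix, so their SE include the spread between prefixes described below. Itpr1 was at 0.09 ± 0.36 and Ppp1r17 at 0.74 ± 0.70, and the other 7 genes lay between -0.17 ± 0.09 for Slc1a6 and 0.09 ± 0.13 for Rora, with -0.13 ± 0.23 for Pcp2, -0.04 ± 0.13 for Pcp4, -0.11 ± 0.21 for Car8, 0.07 ± 0.20 for Foxp2 and -0.12 ± 0.18 for Skor2. With the prefix as a block in edgeR, again none of the 9 genes was called between genotypes in CB at E17.5. Of all 17621 genes, 1419 then had an unadjusted p under 0.05, against 617 without the block. None of the 4 Purkinje lists held a called gene in the genotype comparison of CB at any age, and neither did the lists of markers of other cells.

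In adult CB, 6 of the 11 genes of calcium handling and firing had an unadjusted p under 0.05, with all 6 lower in mutant mice, against 14.4% of all genes. That share counts both directions, and no share of lower genes alone is given. The likelihood ratio test called 121 of all genes lower and 29 higher in adult CB. The counts of the other 3 lists were 2 of 8 for early differentiation, 1 of 10 for glutamate signalling to calcium release and 2 of 7 for GABA output. The median log2 fold change of the calcium handling list was -0.29, and that over all genes 0.00. Its smallest p were those of Atp2a2, a calcium pump of the endoplasmic reticulum (-0.19 ± 0.07, adjusted p = 0.32), Ryr1, a calcium release channel (-0.32 ± 0.13, adjusted p = 0.34), and Cacna1a, the P/Q-type calcium channel (-0.43 ± 0.18, adjusted p = 0.34). The count was 3 and the median -0.16 without WT replicate 3, and with any 1 mouse left out the count ran from 0 (without mutant replicate 1) to 8, with medians of -0.35 to -0.16. With 3 RUVs factors the count was 2 and the median -0.11. With the 2 adult mice put back under the labels' genotypes, the count was 8 and the median -0.27. Under the genotypes of the study's sample table they were 1 and -0.21. With these genotypes edgeR called 0 of all genes in adult CX, HIP and CB, so Cul3 was not called either. With the labels' genotypes it called 2, 1 and 2 of all genes there.

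**Figure D3:**
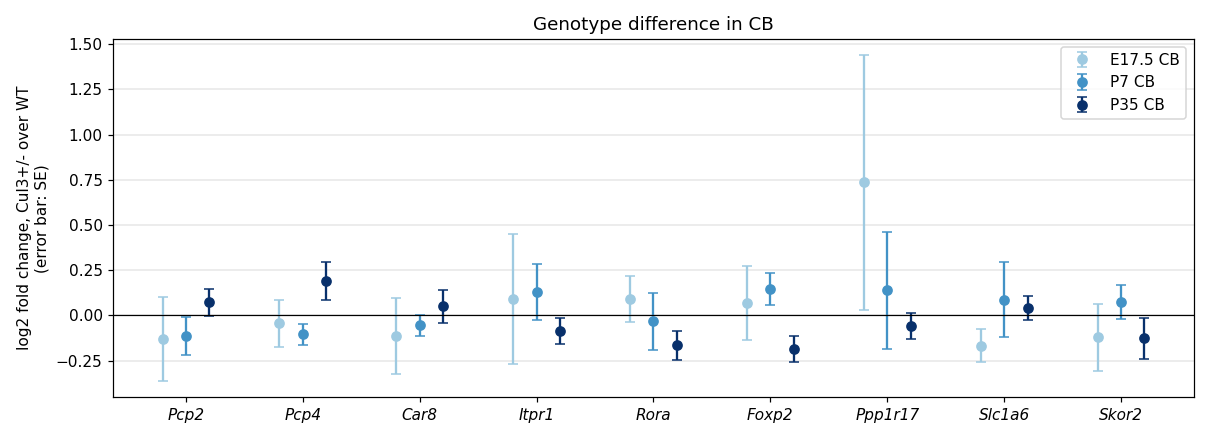
Log2 fold change of Cul3+/- over WT mice in CB for each of the 9 genes at E17.5, P7 and P35, with error bars of 1 SE. None of the points was called, and the widest bars are those of Ppp1r17 and Itpr1 at E17.5.

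In adult HIP, Pcp4 was 77.2, 82.7, 83.7, 80.8 and 73.7 CPM in WT and 64.7, 68.9, 73.3, 73 and 74.7 CPM in mutant mice (-0.17 ± 0.04, adjusted p = 0.8), and it was called in 1 alternative, with 5 RUVs factors of unwanted variation in the model (-0.15, adjusted p = 0.036). Rora was 57.8, 61.8, 65.4, 62.6 and 64.8 CPM in WT and 54.8, 57.8, 61.3, 60.8 and 55.7 CPM in mutant mice (-0.11 ± 0.04, adjusted p = 0.8). The ranges of WT and mutant mice overlapped for both. The same alternative called Itpr1 in HIP at P7. In the tests of the difference in genotype effect between regions none of the 9 genes was called at E17.5, P7 or P35 by edgeR or DESeq2, where 0%, 0% and 0.00525% of all genes were, and the smallest p among the 9 was that of Pcp4 at P35 (adjusted p = 0.25). The test of genotype by period in CB called none of the 9 and 0% of all genes. The numbers of all genes at an unadjusted p under 0.05 in these 4 tests were 465, 886, 3000 and 2570.

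At E17.5 the levels of the 9 genes followed the prefix of the mouse names. The names at E17.5 begin with S2, S3 or S4, each with 2 WT and 2 mutant embryos, and the labels do not say what the prefix stands for. With genotype in the model, the prefix was called for 9 of the 9 genes in CB, where it was called for 28.2% of all genes, for 4 of 6 in CX (all genes 42.7%) and for 4 of 6 in HIP (all genes 30.9%). This comparison was added after the values had been seen. At P7, with 4, 6 and 2 mice of the prefixes C1, C2 and C4, edgeR called none of the 9 genes tested in CB, the 6 in CX or the 7 in HIP, where 0.0742%, 2.17% and 0% of all genes were called, and 6, 1 and 1 of these had an unadjusted p under 0.05, against 13.2%, 15.6% and 7.01% of all genes.

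In the 4 S3 embryos most of the genes that rise with age were low and the 3 transcription regulators were high. Itpr1 in CB was at 46.4 to 60.9 CPM in S3, 119.8 to 140.0 in S2 and 149 to 186 in S4 embryos (adjusted p = 3.9e-06), and the prefixes did not overlap. Car8 was at 157 to 219, 269.7 to 313 and 322 to 406 CPM, in the same order, and Pcp2 at 12.3 to 20.4, 24.1 to 28.8 and 30.4 to 33.8. Foxp2, which falls with age, was at 363 to 491 CPM in S3, 281 to 337 in S2 and 204 to 266 in S4, with the order turned round. Rora was at 270.2 ± 31.3, 223 ± 14.5 and 199 ± 20.9 CPM (mean ± SD, n = 4 each) and Skor2 at 30.6 ± 4.91, 23.2 ± 2.11 and 19.2 ± 3.85. Ppp1r17 was the exception among the rising genes, since it was at 0.745 to 1.90 CPM in S3, 0.151 to 0.266 in S2 and 0.0601 to 0.335 in S4 (adjusted p = 0.00065). Slc1a6 and Pcp4 differed less, with means of 23.5, 25.7 and 30.2 CPM and of 107, 136 and 151 CPM. Without these embryos Itpr1 in WT CB over CX at E17.5 was -1.16 ± 0.14 and Foxp2 3.39 ± 0.39 (log2), and from E17.5 to P7 in CB Itpr1 changed by 2.23 ± 0.11 and Foxp2 by -3.47 ± 0.11, all called by edgeR.

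Other genes of the cell differed by prefix as well. The prefix was called in CB for 7 of 9 early differentiation genes, 5 of 10 genes from glutamate signalling to calcium release, 6 of 11 calcium handling genes and 3 of 6 tested GABA output genes. It was called for 28.2% of all genes there. The test covers any difference among S2, S3 and S4 and does not single out S3. Ebf2 was at 144 to 174 CPM in S3, 89.9 to 105 in S2 and 65.1 to 82.1 in S4, and Lhx5 at 45.1 to 63.7, 34.3 to 43.9 and 27.5 to 38. Calb1 went the other way, with 53.4 to 84.6, 114 to 143 and 156 to 200.2 CPM. Some markers of other cerebellar cells moved with the prefix too. The summed level of the granule cell genes was 936 to 1107 CPM in S3 embryos and 1268 to 1692 in the others, and that of 5 Bergmann glia and astrocyte genes 808 to 980.2 against 1044 to 1484. The summed level of a cerebellar identity list was 685 to 793 CPM in S3, 858 to 1036 in S2 and 949 to 1136 in S4. That of a list of deep and layer 4 cortex genes was 728 to 931, 599 to 685 and 464 to 564, in the same order. The following sums overlapped between prefixes. The oligodendrocyte genes were at 60.5 to 72.3 CPM in S3, 59.3 to 64.1 in S2 and 59.6 to 77.3 in S4. Those of interneurons, unipolar brush cells and deep nuclei were at 159 to 191, 186 to 200 and 168 to 215, in the same order. Their part in the differences was not tested. In CX, Itpr1 was at 112 to 240.4 CPM in S3 embryos, 249 to 329 in S2 and 317 to 366 in S4.

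**Figure D4:**
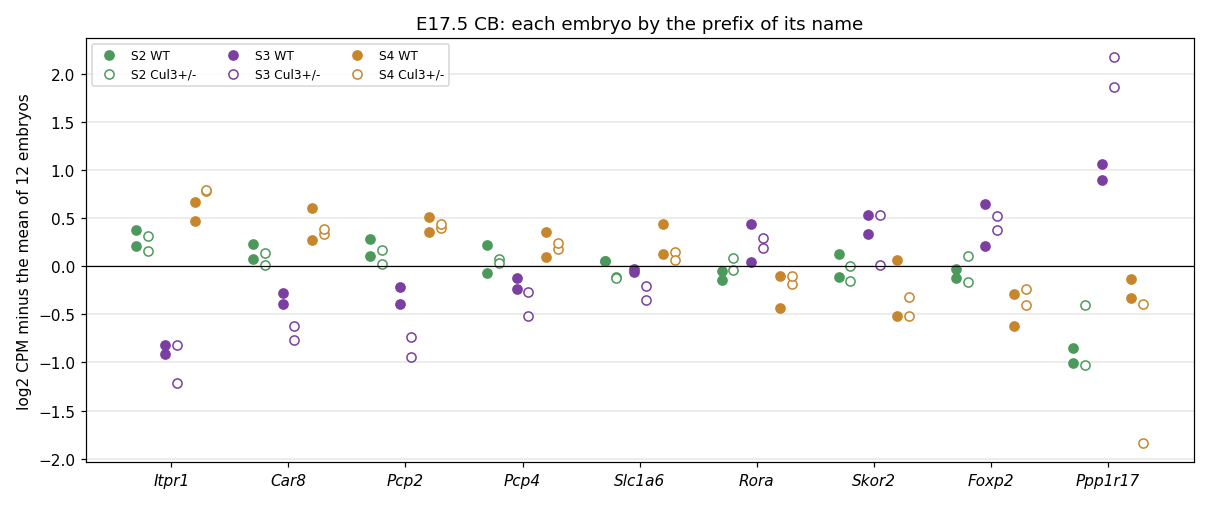
Level of each gene in CB of the 12 embryos at E17.5, as log2 CPM minus the mean of all 12, by the prefix of the mouse name (S2, S3, S4), with WT embryos filled and Cul3+/- embryos open. The S3 points lie below the others for Itpr1, Car8 and Pcp2 and above them for Foxp2 and Ppp1r17.

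The genes that varied together were not the same at each age in CB, and no difference in r between ages was tested. The coefficient of variation between WT mice ran from 13.5% (Slc1a6) to 69.9% (Ppp1r17) at E17.5, from 4.67% (Pcp4) to 32.3% (Ppp1r17) at P7 and from 6.37% (Slc1a6) to 15.5% (Pcp4) at P35, where Pcp4 was at 7.35% without WT replicate 3. Over the 12 embryos, Pearson's r of log2 CPM was 0.99 for Pcp2 and Car8, 0.98 for Car8 and Itpr1 and 0.96 for Rora and Foxp2, and -0.89 between Itpr1 and Foxp2. Over the 12 mice at P7, Rora was instead with the channel and transporter genes, with r of 0.97 with Itpr1 and 0.93 with Slc1a6, and -0.74 with Foxp2. Over the 10 adult mice Pcp4 and Car8 went together (0.97), as did Itpr1 and Rora (0.83), while r was -0.05 between Pcp4 and Itpr1. The points of each r share the age, the region and the normalization, and both genotypes are pooled. At E17.5 the prefixes, called for 9 of the 9 genes, are pooled too, so each r there includes the difference between prefixes.

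Adult WT replicate 3, singled out after the values had been seen, was a CB library in which the genes parted. It had the lowest values of the 5 WT mice for Pcp2 (242 CPM), Pcp4 (279.9) and Car8 (1549), and the highest for Itpr1 (5564), Rora (684) and Ppp1r17 (179). None of these values was flagged by Dixon's criterion, described below. Without it the coefficient of variation fell from 13.1% to 8.39% for Car8 and from 7.39% to 4.67% for Ppp1r17. With and without it the values were 6.83% and 6.22% for Pcp2, 10.1% and 9.86% for Itpr1 and 11.5% and 10.5% for Rora. For Foxp2, Slc1a6 and Skor2 the coefficient was higher without it. Without this mouse the log2 fold changes from P7 to P35 were 0.77 for Pcp4, 2.01 for Car8 and 2.85 for Itpr1. Its granule cell sum of 5823 CPM lay inside the range of the other 9 adult CB libraries, 5389 to 5876. Its summed level of 7 genes of a forebrain identity list was 349 CPM against 127 to 262 in the other 9. Over all adult WT CB libraries, Emx1 was at most at 0.107 CPM and Zbtb20 at up to 266 CPM. The cause of the higher sum was not tested.

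For each gene the 3 genes with the most similar pattern were taken by Pearson's r of log2 CPM over all libraries used, among 20859 genes. These libraries share mice, regions and ages, so the values describe the pattern over groups. Pcp2 was most like Arhgef33 (0.99), Zfp385c (0.98) and Lbx1 (0.97). Slc1a6 (0.97) and 9330118I20Rik (0.96) were among the 3 nearest to Car8, and Car8 (0.97) and St6galnac4 (0.95) among the 3 nearest to Slc1a6. Rora and Pcp4 were within each other's 3, at 0.96, beside Cdh22 for both. The genes nearest to Itpr1 were Tapt1 (0.94), Cipc (0.93) and Fndc10 (0.92), those nearest to Ppp1r17 Rps6ka1 (0.97), Cbln3 (0.96) and Gm42912 (0.95), those nearest to Foxp2 Sema3a (0.92), Lin28b (0.91) and Pbx3 (0.88) and those nearest to Skor2 Gm12116 (0.99), Pax3 (0.99) and Skor1 (0.98).

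Over the 34 CB libraries with the mean of each age and genotype subtracted, the neighbours were others for 8 of the 9 genes, and Skor2 kept Skor1. The S3 embryos are among these libraries. Calb1 was among the 3 nearest of Pcp2 (0.95), Pcp4 (0.90) and Car8 (0.98). The others were Cadps2 (0.96) and Sept4 (0.96) for Pcp2, Stk17b (0.91) and Car8 (0.91) for Pcp4, and Cadps2 (0.97) and Glce (0.96) for Car8. Itpr1 was most like Strip2 (0.96), Baiap2 (0.95) and Arhgef33 (0.95), and Slc1a6 most like Purb (0.89), Gabra6 (0.87) and Lingo3 (0.87), where Gabra6 encodes a GABA-A receptor subunit of granule cells. For the regulators the nearest were Plxdc2 (0.89), Gpr63 (0.88) and Lrch1 (0.87) for Rora, Ebf2 (0.86), Chst15 (0.85) and Rapgef5 (0.85) for Foxp2 and Lhx5 (0.90), Sox4 (0.86) and Skor1 (0.85) for Skor2, and for Ppp1r17 they were Wnt7a (0.88), Dact1 (0.87) and Cacna2d3 (0.84).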

How the data were processed

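Total RNA was depleted of ribosomal RNA, made into stranded libraries and sequenced as paired ends. Per the study's methods and the submitters' processing notes, reads were trimmed with cutadapt 1.14, aligned to GRCm38 (mm10) with STAR 2.5.3a and quantified with RSEM 1.3. The deposited table holds RSEM expected counts per gene, as the authors made them, not normalized. Of its values 5.76% were not whole, and all were rounded. The IDs were given symbols, positions and exon lengths from the GENCODE M21 annotation of GRCm38, in which 53274 of 53465 IDs had a symbol.

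Levels were computed as CPM on TMM library sizes over all libraries used, together. Each comparison was fitted over all genes that passed filterByExpr (minimum count 10, minimum total 15) with edgeR 4.0.16 in R 4.3.3 (glmQLFit and glmQLFTest), and every p and adjusted p in the text is from that fit unless another tool is named. The SE of a log2 fold change was derived from its F statistic. Region contrasts had the mouse as a block, since the 3 regions came from the same mice. Genotype was fitted in each period and region alone, without sex, which the labels used here do not give, and without RUVs factors, whose number per dataset the study does not state. Samples were grouped by the labels, each mouse being 1 replicate, and no 2 libraries of a dataset were identical. The 9 genes and all lists were chosen with earlier results of these data known, so no list is independent evidence. Named were all 9 genes, the 3 genes of each list with the smallest p in a comparison and the 3 genes with the highest r for each of the 9, and the other list genes (Lhx5, Calb1, En2, Emx1, Zbtb20 and, among embryos, Ebf2) were chosen after their values were seen. Some genes that these rules pick are not reported here.

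Replicate numbers are shared by WT and mutant mice in the labels. In E17.5 CX the deviations of same-numbered mice correlated in 6 of 6 pairs (r 0.12 to 0.76). In HIP and in CB at E17.5, 5 of 6 pairs had r above 0.1. Same-numbered embryos at E17.5 also share the name prefix, so a pairing by number cannot be told apart from the prefix. No litter or day is stated in the labels. Alternatives were upper-quartile normalization, no count filter, DESeq2 1.42.0, the likelihood ratio test, RUVs with 3 and 5 factors, a replicate block, no mouse block, the 2 adult mice put back, mutant in place of WT mice and each mouse left out, and, chosen after seeing the data, the name prefix as a block and the S3 embryos left out. The scripts were tested on simulated data.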

Additional observations from a re-analysis of the deposited data

Results flagged for a closer look

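Among 128 groups of 5 or 6 mice tested over the 9 genes, 8 held a mouse far from the others by Dixon's criterion, which chance gives in about 1 of 20 groups. Foxp2 accounted for 3 of them, all in the forebrain at E17.5. In CX its highest mutant embryo, replicate 1, was at 46.8 CPM, where the other 5 lay between 22.1 and 26.8; in the same library the summed level of 8 striatal marker genes was 80.6 CPM against 42.7 to 55.1 in the other mutant embryos, and that of 6 thalamic genes 109.8 against 85.9 to 126. In HIP the highest WT embryo, replicate 6, was at 11.3 CPM, where the other 5 lay between 2.54 and 4.20; its striatal sum was 27.8 CPM against 12 to 23.4 and its thalamic sum 142 against 142 to 220.5. The highest mutant embryo of HIP, replicate 3, was at 7.49 CPM, where the other 5 lay between 2.32 and 4.11. The part of neighbouring tissue in these values was not tested.

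Itpr1 in HIP at P7 was lowest in WT replicate 5, at 137 CPM, where the other 5 lay between 158 and 167, and highest in mutant replicate 3, at 172 CPM, where the other 5 lay between 131 and 138. Pcp4 in CX at E17.5 was highest in WT replicate 4, an S3 embryo, at 17.8 CPM, where the other 5 lay between 9.90 and 12.7. Slc1a6 in CB at E17.5 was highest in WT replicate 6, an S4 embryo, at 35.6 CPM, where the other 5 lay between 25.1 and 28.6, and in adult CX it was lowest in WT replicate 1, at 4.31 CPM, where the other 4 lay between 5.63 and 6.02.

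For 2 genes the difference of CB over CX had 1 sign in all WT mice of 1 age and the opposite sign in all WT mice of another. The mice of the ages were different animals. Itpr1 had a log2 fold change of -1.34 ± 0.14 at E17.5 and of 1.76 ± 0.09 and 2.28 ± 0.07 at P7 and P35, and Foxp2 one of 3.50 ± 0.31 at E17.5 and of -0.68 ± 0.16 at P35. For Foxp2 at P7, CB was above CX in 3 of 6 WT mice. The difference between ages was not tested.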

How the results depend on the processing

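Counts of the 9 genes called in each comparison stayed within 1.5 times under every alternative, except that RUVs with 5 factors called 1 gene between genotypes in HIP at P7 (Itpr1) and 1 in HIP at P35 (Pcp4), where edgeR's quasi-likelihood test called none and had 0 and 2 of the genes tested at an unadjusted p under 0.05. Over all genes, where the quasi-likelihood test called 1 gene in each of the 9 genotype comparisons, DESeq2 called 218 in adult CB and 1 to 6 elsewhere, the likelihood ratio test 150 and 1 to 3, RUVs 1 to 195 with 3 factors and 2 to 475 with 5, and the replicate block 55 in E17.5 CX. Genotype differences in CB that were not called changed sign with RUVs factors, the cause of which was not tested. With 3 factors Pcp4 at E17.5 was 0.013 (log2), Foxp2 at E17.5 -0.024, Car8 at P35 -0.072 and Slc1a6 at P35 -0.0063. With 5 factors these were 0.018, -0.024, -0.080 and -0.030, and Ppp1r17 at E17.5 was -0.071 and Car8 at P7 0.0039. With the S3 embryos left out Pcp4 at E17.5 was 0.026. With 1 mouse left out the values in CB ran from -0.24 to 0.0086 for Pcp2, -0.10 to 0.046 for Pcp4, -0.21 to 0.0070 for Car8, -0.066 to 0.27 for Itpr1 and -0.035 to 0.25 for Foxp2 at E17.5, from -0.16 to 0.044 for Rora, -0.12 to 0.32 for Ppp1r17 and -0.052 to 0.20 for Slc1a6 at P7, and from -0.017 to 0.11 for Car8 at P35. Foxp2 in CB over CX at P7 was -0.010 in DESeq2 and -0.0087 to 0.099 with 1 mouse left out. Rora from E17.5 to P7 in CB was 0.13 without the S3 embryos and -0.099 to 0.086 with 1 mouse left out. None of these was called. Itpr1 in CB over HIP at E17.5 was not called without the mouse block, and Skor2 from P7 to P35 in CB was not called under upper-quartile normalization (0.24, adjusted p = 0.15, edgeR) or without the filter (0.26, adjusted p = 0.15, edgeR) and ran from 0.21 to 0.34 with 1 mouse left out. Upper-quartile normalization moved the WT levels in CB at P7 to 217 CPM for Pcp4 and 467 for Car8. The replicate block changed no call of the 9 genes. With it 0 were called between genotypes in E17.5 CX, where all same-numbered pairs correlated. In the other 8 datasets, where at least 1 pair had r of 0.1 or less, 0 were called too. Depth limits Pcp2, Skor2 and Ppp1r17 in the forebrain, where a library held few or no counts of them.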
